A study of Mus musculus with 6 samples.

Results

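The mitochondrial respiratory chain and ATP synthase were followed in 2 kinds of cultured mouse T cell on 6 Affymetrix arrays. Members were the probe sets with a single gene symbol that starts with Ndufa, Ndufb, Ndufc, Ndufs, Ndufv, Sdh, Uqcr, Atp5 or Cox4 to Cox8, without the Ndufaf and Sdhaf assembly factors. The rule took 169 of 45101 probe sets and 82 of 18193 genes, of which 36 belong by name to complex I, 4 to complex II, 8 to complex III, 17 to complex IV and 17 to complex V. A further 10 probe sets name a member beside another gene and were left out, and no gene of mitochondrial DNA was measured under its usual symbol. The 2D11 group (replicates 1, 2 and 4) was labelled CD8aa Tregs, and the OvacD8 group (replicates 1, 2 and 3) was labelled OT-1 CD8aa+TCRab+ T cells. OT-1 is a transgenic T cell receptor that sees an ovalbumin peptide, and the series title describes the regulatory cells as restricted by the class Ib molecule Qa-1. All 6 samples were named T cell clone, and every culture held the cells' own antigen, antigen-presenting cells and IL-2. Strain, age, time in culture and time since the last antigen were not given in the sources used here.

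The respiratory chain passes electrons from NADH (complex I) or succinate (complex II) through coenzyme Q to complex III, cytochrome c and complex IV, and complexes I, III and IV pump protons across the inner mitochondrial membrane. Complex V uses the returning protons to make ATP. Each complex joins a few catalytic subunits with many small accessory ones, and activated T cells are known to draw on this pathway together with glycolysis.

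The deposited values were taken as log2, a base read from the values themselves, and were centred on the median of each probe set over the 6 arrays. A value of 0 is thus that median and not a low level. Differences between arrays can be read from them, but levels cannot, and no gene can be ranked against another by abundance. Each group may be repeats of 1 cell line, and the labels do not say whether replicates were separate cultures, so each p-value covers no more than the spread of these 6 samples, which may be technical. In RNA from a culture, fewer cells of a type and less RNA per cell cannot be told apart. The OvacD8 arrays were not alike. Over the 169 member probe sets OvacD8-2 and OvacD8-3 correlated at r = 0.879, while OvacD8-1 correlated with them at 0.10 and 0.14, and over 29526 probe sets spanning at least 0.1 these values were 0.855, 0.298 and 0.353. The probe sets of an array share probes, processing and centring, so these correlations are descriptions. Control transcripts for the labelling reaction, read by 24 probe sets, also averaged -1.58 and -2.39 on OvacD8-2 and OvacD8-3 against 0.49 on OvacD8-1 and -0.11 to 0.82 on the 2D11 arrays. Results are therefore given with and without OvacD8-1. Cd8b1, the CD8 beta chain that CD8 alpha homodimer cells lack, was -1.07, -1.48 and -1.21 on the 2D11 arrays and 1.09, 1.07 and 1.16 on the OvacD8 arrays, a difference of -2.36 ± 0.11 (SE, n = 3 and 3, adjusted p = 0.000930). It was thus higher in the OvacD8 group, although the label of that group also reads CD8aa+. Centred values cannot show whether either group lacks the beta chain.

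Promoter sequences are shown for 4 genes on which the results below turn: Uqcr10 and Uqcrh, complex III genes that fell, Uqcrfs1, a complex III gene whose groups did not overlap but which did not pass, and Atp5j, the only member that rose. They are the 150 bases before the RefSeq start site in assembly GRCm38.p6, 5′ to 3′ on the gene's strand, at chr11:4704345-4704494, chr4:116075071-116075220, chr13:30545317-30545466 and chr16:84834977-84835126, all on the minus strand, and for Atp5j from the second of its RefSeq promoters. Capitals mark exact matches to the motifs named after the sequences.
Uqcr10: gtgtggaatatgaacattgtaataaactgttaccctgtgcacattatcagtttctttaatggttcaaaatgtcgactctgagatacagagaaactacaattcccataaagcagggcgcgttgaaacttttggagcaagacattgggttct
Uqcrh: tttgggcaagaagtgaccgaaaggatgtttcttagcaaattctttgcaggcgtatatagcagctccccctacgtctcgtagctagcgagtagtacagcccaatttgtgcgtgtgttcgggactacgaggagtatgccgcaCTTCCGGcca
Uqcrfs1: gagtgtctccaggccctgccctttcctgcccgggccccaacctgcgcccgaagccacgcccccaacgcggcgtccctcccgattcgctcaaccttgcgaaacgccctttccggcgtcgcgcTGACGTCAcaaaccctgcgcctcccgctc
Atp5j: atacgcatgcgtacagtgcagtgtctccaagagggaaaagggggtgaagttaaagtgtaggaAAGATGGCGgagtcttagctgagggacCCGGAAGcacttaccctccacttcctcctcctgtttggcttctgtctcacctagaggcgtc

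The motifs searched were an ETS site (CCGGAAG), an NRF1 site (GCGCATGCG, a length chosen after the data were seen), a YY1 site (AAGATGGCG), an E-box (CACGTG) and a cyclic AMP response element (TGACGTCA), each on both strands. Uqcrh held the ETS letters on the other strand at -10 to -4, Uqcrfs1 the cyclic AMP response element at -29 to -22, and Atp5j both the YY1 letters at -88 to -80 and the ETS letters at -61 to -55, while the Uqcr10 stretch held none of these 5. The first Atp5j promoter, not shown, held none of them either. RefSeq gave 72 promoters of 300 bases, with 250 before and 50 after the start, for 67 of the 82 members. The ETS letters stood in 17 of the 72 (23.6%) against 8.86% of all 32851 promoters, the YY1 letters in 6 (8.33% against 1.40%), the NRF1 letters in 7 (9.72% against 1.75%), the E-box in 7 (9.72% against 7.15%) and the cyclic AMP response element in 3 (4.17% against 1.79%). Among the promoters of genes measured here the ETS, NRF1 and YY1 shares were 13%, 2.69% and 2.09%. Those of the E-box and the cyclic AMP response element were 8.72% and 2.49%, so the E-box share of the members was near that background. These are matches of letters in a window, and no site is implied.

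Seen as a whole, the 82 members were split between genes lower and genes higher in 2D11, and few passed the test. At an adjusted p under 0.05 over all 18193 genes, 5 members fell (Uqcr10, Ndufa7, Uqcrh, Uqcrb and Ndufb8) and 1 rose (Atp5j). That is 7.32% of the members, beside 6.67% of all genes (3.3% higher and 3.37% lower), so the share is near the background. The groups did not overlap for 15 members that were lower in 2D11 and 14 that were higher, or 35.4% of the members beside 23.3% of all genes (10.7% lower and 12.6% higher). The median difference, 2D11 minus OvacD8, was -0.04 over the members and 0.01 over all genes, and 57 of the 82 members differed by less than 0.25 on the log2 scale. Without OvacD8-1, 15 members passed as lower and 4 as higher, or 23.2% beside 17.2% of all genes (9.4% lower and 7.8% higher). The controls of the labelling reaction separate OvacD8-2 and OvacD8-3 from the other 4 arrays. With that split as a term each difference is the 2D11 mean minus OvacD8-1, and the spread comes from the 2D11 arrays and from OvacD8-2 against OvacD8-3. The lone OvacD8-1 is thus assumed to vary like the others, with no replicate of its own behind it. Under that assumption Uqcr10 and Ndufb8 passed as lower and Ndufa12 as higher, while the other 4 had an adjusted p of 0.0510 to 0.0827 (3.66% beside 7.48% of all genes, 4.66% lower and 2.83% higher). By probe set, 10 of the 169 passed (5.92%), beside 4.06% of all probe sets. The member probe sets were less often flat than others: 17 of 169 (10.1%) spanned under 0.1 over the arrays, beside 34.4% of all probe sets. Flat genes thus lower the shares over all genes. Of the 12198 genes spanning at least 0.1, 9.95% passed with all arrays and 25.7% without OvacD8-1. Among those 12198 the groups did not overlap for 1930 genes that were lower in 2D11 and 2224 that were higher. That share is above the 23.3% of all genes and close to the 35.4% of the 82 members, of which 9 spanned under 0.1.

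**Figure D1:**
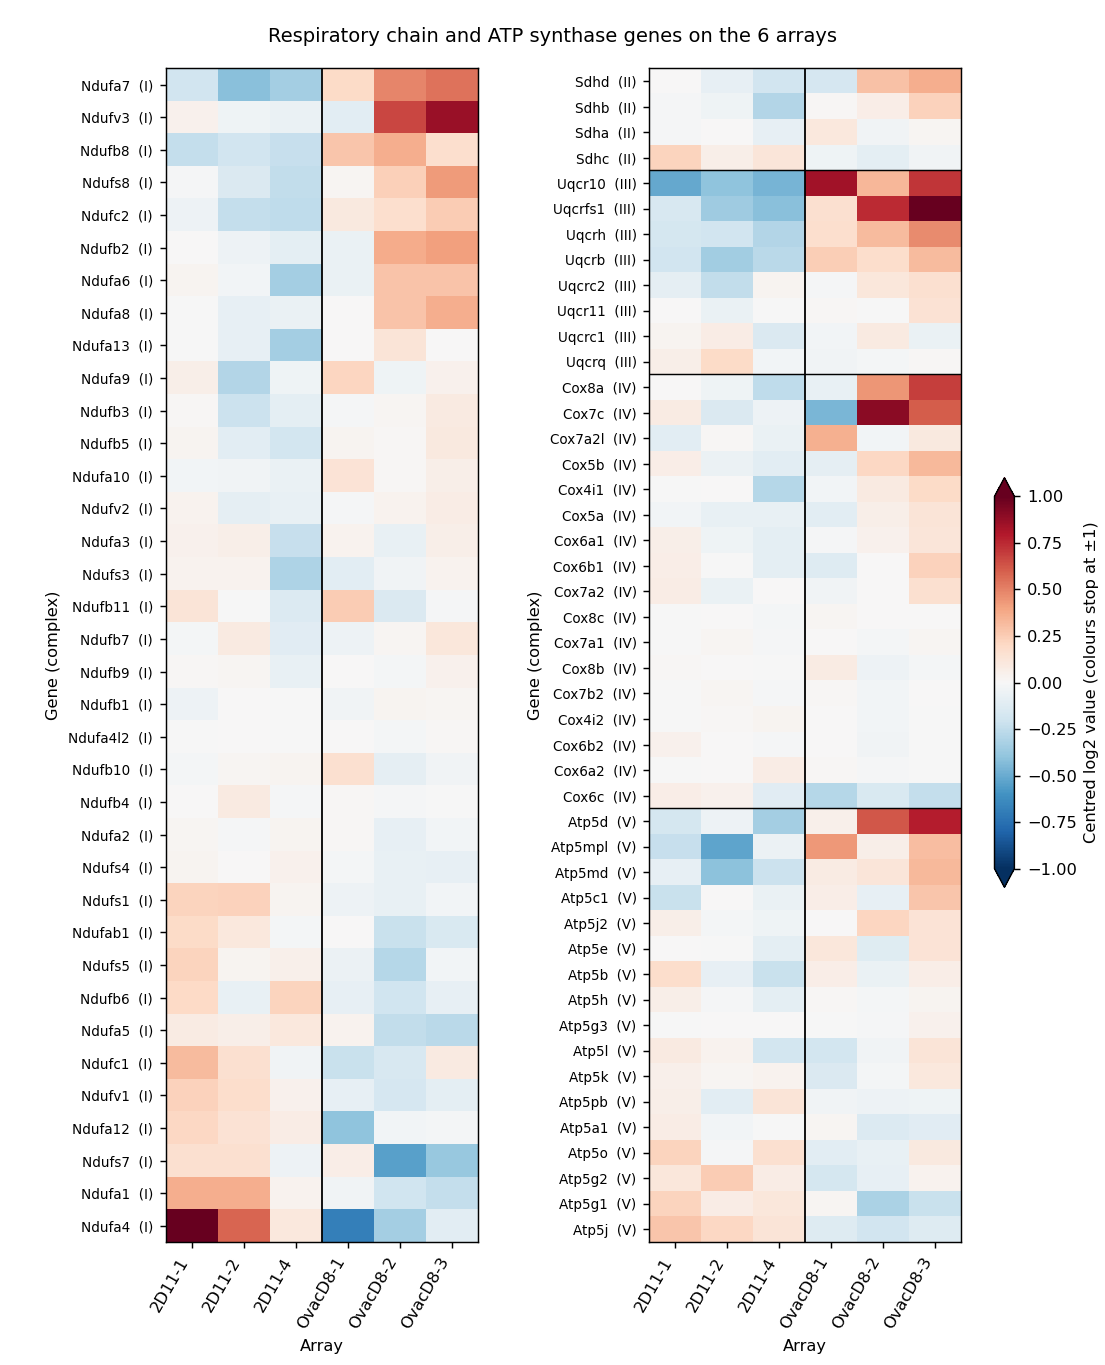
Centred log2 value of each of the 82 member genes (rows, ordered within each complex by the difference between the groups) on the 6 arrays (columns); red is above and blue below the gene's median, and colours stop at 1 and -1. Uqcr10, Uqcrfs1, Uqcrh and Uqcrb are blue on the 3 2D11 arrays and red on the 3 OvacD8 arrays, while in Ndufv3, Cox7c and Cox8a OvacD8-2 and OvacD8-3 are 0.44 or more and the other 4 arrays 0.08 or less.

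**Figure D2:**
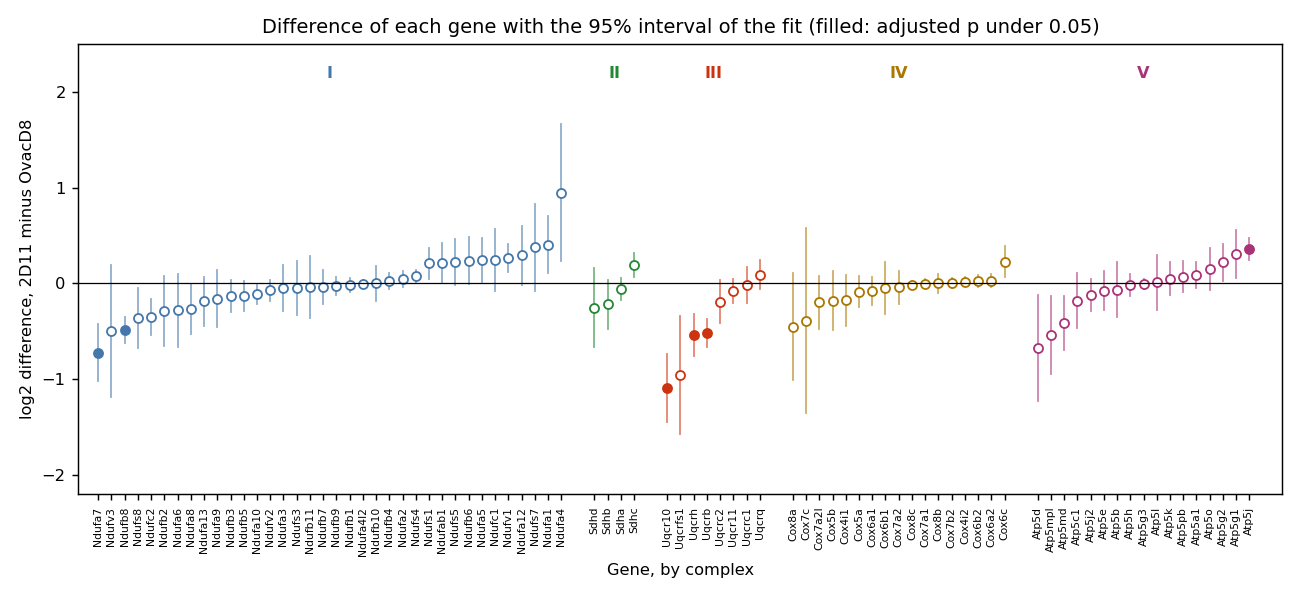
Difference 2D11 minus OvacD8 (log2, vertical axis) of each member gene with the 95% interval of the limma fit, by complex; n is 3 arrays against 3, and filled points have an adjusted p under 0.05. The 6 filled points are Ndufa7, Ndufb8, Uqcr10, Uqcrh, Uqcrb and, above 0, Atp5j at 0.36.

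Complex III, the cytochrome bc1 complex that oxidises coenzyme Q and reduces cytochrome c, held the lower values. Of its 8 members 7 were below 0 and 3 fell (37.5%, beside 3.37% of all genes). None rose in limma, nor was any higher at an unadjusted p under 0.05, and the median difference was -0.35. Without OvacD8-1 the median was -0.38 and 4 fell (50%, beside 9.4% of all genes). With the spike-in split it was -0.24 and 1 fell (12.5%, beside 4.66% of all genes). The same median over all genes was 0.01, with 36.3% of all genes below 0, or 46.3% of those spanning at least 0.1.

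Uqcr10, a small accessory subunit, was -0.51, -0.41 and -0.47 on 2D11-1, 2D11-2 and 2D11-4 and 0.84, 0.33 and 0.71 on OvacD8-1, OvacD8-2 and OvacD8-3. Every 2D11 array was below every OvacD8 array, and the difference was -1.09 ± 0.14 (SE, adjusted p = 0.0171), a size of 2.13-fold. Without OvacD8-1 it was -0.99 (adjusted p = 0.0141), and without any one of the 2D11 arrays or OvacD8-3 the adjusted p was 0.0678 to 0.0792. That value is a mean of 3 probe sets that disagreed. Probe set 1434340_at was -1.43, -1.42 and -1.43 on the 2D11 arrays and 1.65, 1.42 and 1.90 on the OvacD8 arrays, a difference of -3.09 ± 0.13 (adjusted p = 0.000953 over 45037 probe sets). The other two, 1434341_x_at and 1424364_a_at, differed by -0.27 (adjusted p = 0.817) and 0.09 (adjusted p = 0.874). Without 1434340_at the gene differed by -0.09 (adjusted p = 0.898) and the complex III median was -0.14, as was that of complex II.

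The probe sets of Uqcrb and of Uqcrh each had the same sign, and the differences were smaller than that of Uqcr10. Uqcrb, an accessory subunit near the coenzyme Q site, was -0.19, -0.35 and -0.27 on the 2D11 arrays and 0.25, 0.18 and 0.32 on the OvacD8 arrays. It was lower by -0.52 ± 0.057 (SE, adjusted p = 0.0115), its 2 probe sets differed by -0.52 and -0.51, and it was lower by the same -0.52 without OvacD8-1 (adjusted p = 0.0162). It passed in 5 of the 6 fits that left out 1 array, and its adjusted p was 0.0508 without 2D11-4. Uqcrh, the acidic hinge protein at the cytochrome c docking side, was -0.18, -0.19 and -0.29 on the 2D11 arrays and 0.17, 0.31 and 0.47 on the OvacD8 arrays, with no overlap. Its difference was -0.54 ± 0.086 (adjusted p = 0.0312), and its 2 probe sets gave -0.65 (adjusted p = 0.0224) and -0.42 (adjusted p = 0.161). It passed in 1 of the 6 fits that left out an array, the one without OvacD8-1 (-0.61, adjusted p = 0.00865), and its adjusted p was 0.0559 to 0.122 in the other 5.

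Uqcrfs1, the Rieske iron-sulfur protein and one of the catalytic subunits, was -0.16, -0.36 and -0.42 on the 2D11 arrays and 0.16, 0.75 and 1.03 on the OvacD8 arrays. The groups did not overlap, but OvacD8-1 lay well below the other OvacD8 arrays, and the difference of -0.96 ± 0.24 did not pass (adjusted p = 0.0997). Without OvacD8-1 it was -1.20 (adjusted p = 0.00830). The core proteins Uqcrc1 and Uqcrc2 differed by -0.01 (adjusted p = 0.942) and -0.19 (adjusted p = 0.325), and the small subunits Uqcr11 and Uqcrq by -0.08 and 0.09 (adjusted p = 0.517 and 0.544). Cyc1, cytochrome c1 of the same complex, lies outside the symbol rule: it was 0.08, 0.08 and -0.05 on the 2D11 arrays and 0.05, -0.45 and -0.37 on the OvacD8 arrays. Its difference was 0.29 ± 0.15 (adjusted p = 0.390), and 0.45 without OvacD8-1 (adjusted p = 0.0149), opposite in sign to Uqcrfs1, the other catalytic subunit measured. The complex III genes thus did not all differ in 1 direction.

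**Figure D3:**
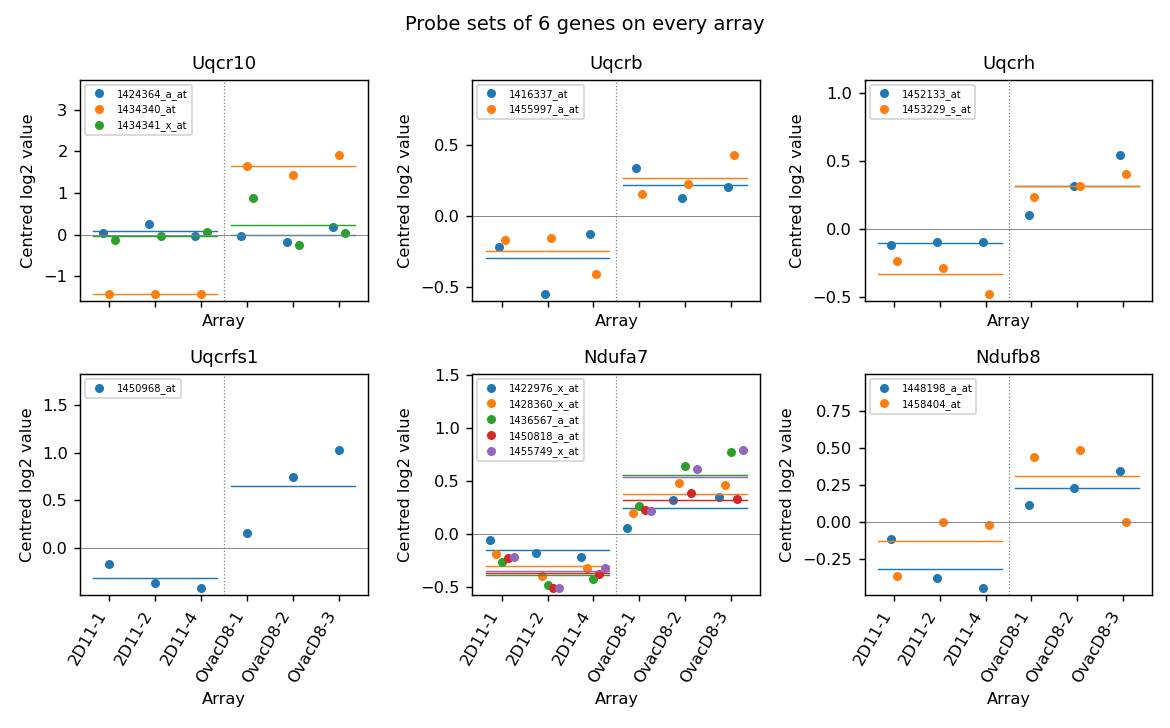
Centred log2 value (vertical axis) of every probe set of 6 genes on the 6 arrays (horizontal axis), with each probe set's mean in each group as a line and a dotted line between the groups. In Uqcr10 the 3 units between the groups lie in 1434340_at, which differs by -3.09, while the 5 probe sets of Ndufa7 are all lower on the 2D11 arrays.

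Complex I, the NADH dehydrogenase, had members in both directions. Its median difference was -0.03 over 36 genes. In limma 2 fell (Ndufa7 and Ndufb8) and none rose (5.56%, beside 6.67% of all genes called in either direction). At an unadjusted p under 0.05, 7 were higher and 6 lower. Without overlap 7 were lower and 9 were higher (of all genes, 10.7% and 12.6%). Both that fell are accessory subunits, and none of the 6 core subunits measured passed (2 higher and 1 lower at an unadjusted p under 0.05). Without OvacD8-1 the median was also -0.03, 7 fell and 2 rose (25%, beside 17.2% of all genes). At an unadjusted p under 0.05 in limma with all arrays, 1960 of the 18193 genes were higher and 1654 lower.

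Ndufa7 was -0.19, -0.42 and -0.34 on the 2D11 arrays and 0.19, 0.49 and 0.54 on the OvacD8 arrays. The groups were apart, with OvacD8-1 between them, and the difference was -0.72 ± 0.115 (SE, adjusted p = 0.0314). All 5 of its probe sets were lower, from -0.95 to -0.40, and 3 of them passed on their own; several are of the x or a type, whose probes can match related transcripts. It passed in 1 of the 6 fits that left out an array, without OvacD8-1 (-0.83, adjusted p = 0.00629), and its adjusted p was 0.0789 to 0.125 in the other 5. Ndufb8, a subunit of the membrane arm, was -0.24, -0.19 and -0.23 on the 2D11 arrays and 0.28, 0.36 and 0.17 on the OvacD8 arrays. Here OvacD8-1 lay among the other OvacD8 arrays, the difference was -0.49 ± 0.053 (adjusted p = 0.0110), and it was -0.49 without OvacD8-1 (adjusted p = 0.0156). It passed in 5 of the 6 such fits, and its adjusted p was 0.0574 without 2D11-1. Neither of its 2 probe sets passed alone, at -0.54 (adjusted p = 0.0791) and -0.44 (adjusted p = 0.337).

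Ndufv3, an accessory subunit of the NADH-oxidising module, was 0.04, -0.04 and -0.07 on the 2D11 arrays and -0.11, 0.67 and 0.87 on the OvacD8 arrays. OvacD8-1 lay with the 2D11 arrays, and the difference was -0.50 ± 0.27 (adjusted p = 0.428) with it and -0.79 (adjusted p = 0.00675) without it. Ndufs7 and Ndufs8, core subunits that carry the iron-sulfur clusters nearest coenzyme Q, differed in opposite directions. Ndufs7 was 0.16, 0.16 and -0.05 on the 2D11 arrays and 0.07, -0.55 and -0.38 on the OvacD8 arrays, a difference of 0.38 ± 0.18 (adjusted p = 0.346), or 0.55 without OvacD8-1 (adjusted p = 0.0311). Ndufs8 was -0.01, -0.14 and -0.24 on the 2D11 arrays and 0.02, 0.24 and 0.43 on the OvacD8 arrays, a difference of -0.36 ± 0.12 (adjusted p = 0.194), or -0.46 without OvacD8-1 (adjusted p = 0.0469). The remaining members that passed only without OvacD8-1 were Ndufb2 at -0.44, Ndufc2 at -0.39 and Ndufa8 at -0.38 as lower and Ndufa5 at 0.34 as higher, with adjusted p between 0.00371 and 0.0436.

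The widest positive difference of any member was that of Ndufa4, which carries a complex I name but is now counted with complex IV. It was 1.01, 0.59 and 0.11 on the 2D11 arrays and -0.69, -0.34 and -0.11 on the OvacD8 arrays. The groups did not overlap, yet both spread widely, and the difference of 0.95 ± 0.28 did not pass with OvacD8-1 (adjusted p = 0.145) or without it (0.79, adjusted p = 0.189). Ndufa1, a small subunit of the membrane arm, was 0.36, 0.36 and 0.03 on the 2D11 arrays and -0.03, -0.20 and -0.24 on the OvacD8 arrays, a difference of 0.41 ± 0.11 (adjusted p = 0.132). Ndufv1 and Ndufs1, core subunits that bind the flavin and iron-sulfur clusters at the NADH end, were higher by 0.27 ± 0.059 (adjusted p = 0.0743) and 0.21 ± 0.063 (adjusted p = 0.147), both without overlap. Probe sets of a gene could disagree in sign: those of Ndufa12 ran from -0.24 to 0.60 and those of Ndufs4 from -0.13 to 0.63. Single probe sets passed as higher in limma for Ndufv1 (0.43, adjusted p = 0.0138), Ndufc1 (0.40, adjusted p = 0.0197) and Ndufa12 (0.60, adjusted p = 0.0399). A probe set of Ndufa10 passed as lower (-0.205, adjusted p = 0.0443). None of these genes passed as a mean of its probe sets with all arrays.

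Complex II, succinate dehydrogenase, which also works in the tricarboxylic acid cycle, had no member that passed in limma among 4, at a median of -0.14. At an unadjusted p under 0.05, 1 was higher and none lower. In complex II 1 member fell without OvacD8-1 (25%, beside 9.4% of all genes). Its 2 membrane anchors had opposite signs. Sdhd was 0.01, -0.08 and -0.19 on the 2D11 arrays and -0.17, 0.29 and 0.37 on the OvacD8 arrays, so OvacD8-1 fell within the 2D11 range; the difference was -0.25 ± 0.16 (adjusted p = 0.530), or -0.42 without OvacD8-1 (adjusted p = 0.0269). Sdhc was 0.22, 0.06 and 0.12 on the 2D11 arrays and -0.04, -0.10 and -0.03 on the OvacD8 arrays, a difference of 0.19 ± 0.048 without overlap (adjusted p = 0.101). The iron-sulfur subunit Sdhb differed by -0.22 ± 0.10 (adjusted p = 0.334) and the flavoprotein Sdha by -0.06 ± 0.046 (adjusted p = 0.648).

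Complex IV, cytochrome c oxidase, had no member that passed in limma among 17 (1 higher and none lower at an unadjusted p under 0.05), at a median of -0.04. Without OvacD8-1 the median was -0.08 and 2 fell (11.8%, beside 9.4% of all genes). Its 2 widest differences were in small membrane subunits and turned on 1 array. Cox7c was 0.08, -0.15 and -0.05 on the 2D11 arrays and -0.46, 0.91 and 0.60 on the OvacD8 arrays, the only member with an array 1 or more from both others of its group. OvacD8-1 was below every 2D11 array there, and the difference was -0.39 ± 0.38 (adjusted p = 0.731) with it and -0.79 (adjusted p = 0.0222) without it. Against OvacD8-1 alone the 2D11 mean of Cox7c was higher, by 0.42. Cox8a had the values 0.00, -0.04 and -0.26 on the 2D11 arrays and -0.08, 0.44 and 0.70 on the OvacD8 arrays, a difference of -0.45 ± 0.22 (adjusted p = 0.358), or -0.67 without OvacD8-1 (adjusted p = 0.0339). Cox6c was the widest positive member at 0.23 ± 0.063 (adjusted p = 0.130), with 0.07, 0.04 and -0.11 on the 2D11 arrays against -0.28, -0.15 and -0.24. Cox7a2l, which carries a subunit's name and is known for joining complexes III and IV, was 0.36 on OvacD8-1 and between -0.11 and 0.10 on the other 5 arrays, and differed by -0.20 ± 0.11 (adjusted p = 0.438).

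The isoforms that other tissues use, such as the heart and muscle forms Cox6a2, Cox7a1 and Cox8b, the lung form Cox4i2, the testis forms Cox6b2, Cox7b2 and Cox8c, and the hypoxia-induced Ndufa4l2, were nearly flat. Their differences lay between -0.02 and 0.03, and the adjusted p of each was 0.708 or more. Because levels were removed by the centring, flat values do not show whether these genes were silent. With these 7 complex IV isoforms left out, 9 of the other 10 members of complex IV were below 0, at a median of -0.13 with all arrays, -0.14 without OvacD8-1 and 0.04 against OvacD8-1 alone.

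Complex V, the ATP synthase, held the only member that rose (1 of 17 or 5.88%, beside 6.67% of all genes called in either direction). Atp5j, coupling factor 6 of the peripheral stalk, was 0.28, 0.21 and 0.13 on the 2D11 arrays and -0.13, -0.19 and -0.13 on the OvacD8 arrays. The OvacD8 arrays were close together, and the difference was 0.36 ± 0.045 (SE, adjusted p = 0.0163) from its single probe set, or 0.37 without OvacD8-1 (adjusted p = 0.0195). It passed in 3 of the 6 fits that left out an array, and its adjusted p was 0.0742 without 2D11-2, 0.0721 without OvacD8-2 and 0.0649 without OvacD8-3. Atp5g1, which encodes the c subunit of the membrane rotor, was 0.22, 0.07 and 0.11 on the 2D11 arrays and 0.02, -0.31 and -0.22 on the OvacD8 arrays, a difference of 0.31 ± 0.098 (adjusted p = 0.172), or 0.40 without OvacD8-1 (adjusted p = 0.0207). Atp5g2, another gene for the same c subunit, differed by 0.22 (adjusted p = 0.193) and Atp5g3 by -0.01 (adjusted p = 0.927). The 3 probe sets of Atp5g2 disagreed in sign, from -0.22 to 0.90.

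Other parts of the ATP synthase were lower without overlap and did not pass. Atp5d, the delta subunit of the central stalk, was -0.18, -0.05 and -0.34 on the 2D11 arrays and 0.05, 0.62 and 0.79 on the OvacD8 arrays, a difference of -0.67 ± 0.21 (adjusted p = 0.169), or -0.89 without OvacD8-1 (adjusted p = 0.0122). Atp5mpl, a small membrane proteolipid, was -0.23, -0.53 and -0.06 on the 2D11 arrays and 0.43, 0.06 and 0.31 on the OvacD8 arrays, a difference of -0.54 ± 0.16 (adjusted p = 0.146). The alpha and beta subunits of the head, Atp5a1 and Atp5b, differed by 0.09 ± 0.052 (adjusted p = 0.471) and -0.07 ± 0.11 (adjusted p = 0.881). Over the 17 members the median difference was -0.01, and -0.02 without OvacD8-1.

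Set against each OvacD8 array in turn, complex III was the complex whose median stayed farthest below 0, with each gene as the mean of its probe sets. These are descriptions, since 1 array on one side has no spread of its own, and the 3 comparisons share the 2D11 arrays. The mean of the 2D11 arrays minus OvacD8-1, OvacD8-2 and OvacD8-3 had a median over complex III of -0.24, -0.33 and -0.43. The medians were -0.02, -0.09 and -0.20 for complex II, 0.01, 0.01 and -0.05 for complex I, 0.002, -0.01 and -0.15 for complex IV and -0.003, 0.02 and -0.07 for complex V. Over all genes they were -0.003, 0.03 and 0.003. All members together gave -0.004, -0.002 and -0.10, so only against OvacD8-3 was the median of the members 0.1 below 0. The complex III medians take in the Uqcr10 mean, which leans on 1434340_at. Against OvacD8-1, OvacD8-2 and OvacD8-3 that probe set differed by -3.08, -2.85 and -3.33. The values were -0.93, 0.20 and -0.08 for 1434341_x_at and 0.11, 0.26 and -0.11 for 1424364_a_at. With the median of a gene's probe sets, the medians were -0.24, -0.16 and -0.26 for complex III and 0.01, -0.08 and -0.18 for complex II.

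The single complex III genes behaved differently across the 3 arrays. Uqcr10 was -1.30, -0.80 and -1.17 relative to OvacD8-1, OvacD8-2 and OvacD8-3, and Uqcrb was -0.52, -0.45 and -0.59, a narrow range. Uqcrfs1 was -0.47, -1.06 and -1.34, and Uqcrh was -0.39, -0.54 and -0.69. The count of members at least 0.5 below was 4, 9 and 12 for OvacD8-1, OvacD8-2 and OvacD8-3 (4.88%, 11% and 14.6%), beside 5.1%, 9.03% and 8.64% of all genes. At least 0.5 above were 2, 2 and 1 members, beside 5.19%, 6.62% and 7.05% of all genes. Within the 2D11 group the member median of 1 array minus the mean of the other two was 0.10 for 2D11-1, 0.01 for 2D11-2 and -0.07 for 2D11-4, so the -0.10 against OvacD8-3 is about as wide as this spread. The complex III medians, which take in Uqcr10 probe set 1434340_at, are wider than theirs, which were 0.05, -0.01 and -0.05 within 2D11.

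**Figure D4:**
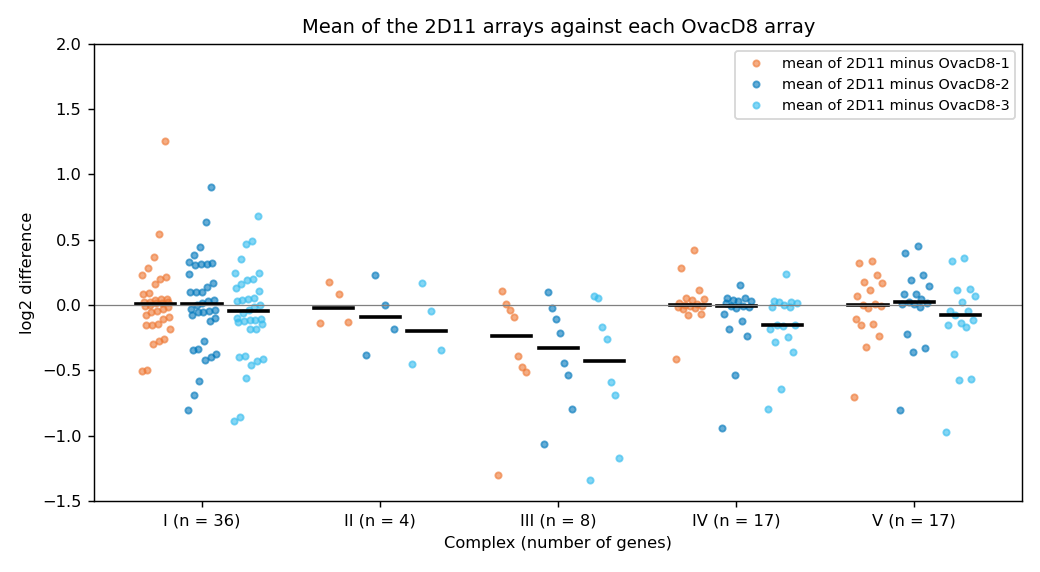
Mean of the 3 2D11 arrays minus each OvacD8 array (log2, vertical axis) for every member gene, by complex, with bars at the median; colours stand for the 3 OvacD8 arrays. The bars of complex III lie at -0.24, -0.33 and -0.43, and those of complex I within 0.05 of 0. Each gene is the mean of its probe sets, so Uqcr10 takes in 1434340_at.

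OvacD8-1 did not hold 1 place among the members. Of the 24 members that differed by at least 0.3 between the 2D11 mean and the mean of OvacD8-2 and OvacD8-3, a size chosen after the values were seen, OvacD8-1 was nearer to 2D11 in 13 (54.2%) and nearer to the other OvacD8 arrays in 11. Over all genes that share was 54.7% of 4587, so members and other genes were alike in this. Uqcr10, Uqcrb, Ndufb8 and Atp5j were genes for which OvacD8-1 lay with the OvacD8 arrays, and Ndufv3, Cox7c, Cox8a, Ndufs7 and Sdhd were genes for which it lay near or beyond the 2D11 mean.

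**Figure D5:**
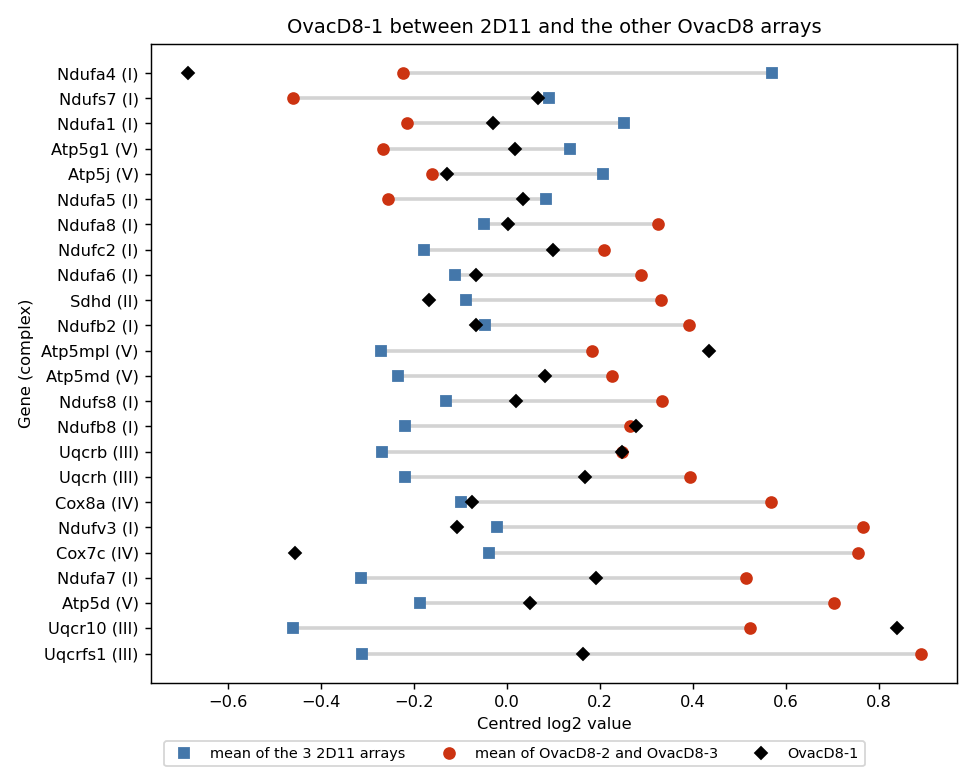
Centred log2 value (horizontal axis) of the 24 member genes that differ by at least 0.3 between the mean of the 3 2D11 arrays (squares) and the mean of OvacD8-2 and OvacD8-3 (circles), with OvacD8-1 as a diamond. OvacD8-1 is nearer to the square in 13 genes and nearer to the circle in 11.

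Lists of genes that serve the chain from outside were counted in the same fit, beside 6.67% of all genes called (17.2% without OvacD8-1). Among 44 assembly factors 1 rose and 2 fell (6.82%) at a median of -0.02, and 5 rose and 6 fell without OvacD8-1. Ndufaf5, which modifies a complex I core subunit, rose by 0.63 ± 0.084 (SE, adjusted p = 0.0199). Sdhaf4, which helps complete succinate dehydrogenase, was -0.22, -0.45 and -0.43 on the 2D11 arrays and 0.22, 0.79 and 0.73 on the OvacD8 arrays, a difference of -0.95 ± 0.17 (adjusted p = 0.0459). Atpaf2, an assembly factor of the ATP synthase head, fell by 0.52 on the log2 scale (adjusted p = 0.0403). Of 6 electron carriers and subunits outside the rule none passed, at an unadjusted p under 0.05 in 1 of them, which was lower.

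Coenzyme Q is the carrier that complexes I and II reduce and complex III oxidises, and 2 of its 11 synthesis genes rose while 1 fell (27.3%, beside 6.67% of all genes). Coq2, which joins the side chain to the ring, was 0.35, 0.45 and 0.45 on the 2D11 arrays and -0.35, -0.98 and -1.01 on the OvacD8 arrays, with no overlap. It rose by 1.20 ± 0.20 (adjusted p = 0.0345), or 1.41 without OvacD8-1 (adjusted p = 0.000485). Coq5, a methyltransferase of the same route, rose by 0.78 ± 0.14 (adjusted p = 0.0474), and Coq9, which binds its lipid intermediates, fell by 0.35 on the log2 scale (adjusted p = 0.00752). Of 12 tricarboxylic acid cycle genes 4 passed (33.3%, beside 6.67% of all genes): 2 rose, Idh3a by 0.50 (adjusted p = 0.0162) and Fh1 by 0.46 (adjusted p = 0.0180), and 2 fell, Suclg2 with -0.57 (adjusted p = 0.0194) and Idh3b with -0.45 (adjusted p = 0.0176). Idh3a and Idh3b encode partner subunits of NAD-dependent isocitrate dehydrogenase, and their groups were apart in opposite directions on every array.

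Of 76 genes of the mitochondrial ribosome, which translates the subunits encoded by mitochondrial DNA, 3 rose (Mrps10 by 0.56, Mrps15 by 0.55 and Mrps21 by 0.40) and 1 fell (Mrpl16 with -0.42), or 5.26%, at a median of 0.03. Without OvacD8-1, 8 rose and 8 fell. Of 27 genes of import and cristae 1 rose, Chchd6 by 0.46 (adjusted p = 0.0403), and without OvacD8-1 5 rose and 2 fell. Among 13 regulators of mitochondrial genes 1 passed: Tfb1m, which methylates mitochondrial ribosomal RNA, was -0.36, -0.30 and -0.41 on the 2D11 arrays and 0.63, 0.66 and 0.25 on the OvacD8 arrays, a difference of -0.87 ± 0.12 (adjusted p = 0.0227). Without OvacD8-1, 4 regulators rose and 1 fell. Of the factors whose motifs were searched, Gabpa, an ETS factor, differed by 0.05 (adjusted p = 0.875), Nrf1 by 0.27 (adjusted p = 0.405) and Yy1 by -0.14 (adjusted p = 0.377).

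Markers of other cells in the cultures were read on the same arrays. None of the 6 B cell, 8 myeloid, 5 dendritic, 3 NK and 3 red cell markers measured passed in limma with all 6 arrays; at an unadjusted p under 0.05 there were 2 lower myeloid and 1 higher dendritic marker and none in the other lists. Without OvacD8-1, 2 myeloid markers fell (Cd68 and Cd14), 1 rose (Lyz2 by 2.56, adjusted p = 0.0360) and the dendritic marker Batf3 rose by 0.96 (adjusted p = 0.0183), while no B, NK or red cell marker passed. The B cell list was flat, with 4 of 6 markers spanning under 0.1. Cd68, a lysosomal protein of macrophages, was -0.71, -0.51 and -0.48 on the 2D11 arrays and 0.48, 3.34 and 3.44 on the OvacD8 arrays, with OvacD8-1 nearer to the 2D11 arrays, as for Ndufv3 and Cox8a (adjusted p = 0.144, and 0.000284 without OvacD8-1). The median of the myeloid list was between -0.14 and 0.01 on the 2D11 arrays, 0.34 on OvacD8-1 and near 0 on OvacD8-2 and OvacD8-3 (-0.02 and -0.001), so the list as a whole did not follow Cd68. OvacD8-1 was the highest array for Lyz2 (2.70), Mpeg1 (3.27) and Csf1r (1.17), where OvacD8-2 and OvacD8-3 lay between -2.82 and 0.14. Of 8 T cell markers 2 fell (25%, beside 3.37% of all genes), Cd8b1 and Cd247, the CD3 zeta chain (-0.90, adjusted p = 0.0151). Without OvacD8-1, 3 of the 8 fell and 0 rose, beside 9.4% of all genes lower and 7.8% higher. The part of other cells, of the labelling reaction and of OvacD8-1's difference in these results was not tested.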

How the data were processed

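The authors deposited log2 values made with RMA, per the submitters' processing notes, with no version given; the base and the centring of every probe set on its median are stated nowhere in the sources used here. Per the labels' protocols, RNeasy RNA was amplified with the Ovation system and labelled with biotin. Only 6 arrays bound the precision. The array's annotation gave 1 symbol to 34945 probe sets, several to 932 and none listed here to 9160, and 64 array controls were left out. A gene's value was the mean of its probe sets, which can disagree; 49 members have several. The test was limma 3.58.1 in R 4.3.3 (lmFit and eBayes, two-sided) with Benjamini-Hochberg adjustment over 18193 genes at 0.05; differences are 2D11 minus OvacD8. The prior had 0.98 degrees of freedom, and the fit was tested on simulated data. Summaries used Python 3.11.15 with pandas 2.3.3.

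The members, lists and markers were chosen with earlier results of these data known, so no p is given over a list. The rule named members that passed, the 2 widest in each direction per complex, tissue-restricted isoforms, members whose groups were apart by 0.5, members with an outlying array, and up to 3 passing genes per list and direction. Others, such as members that passed only without OvacD8-1, were named after their values were seen. Alternatives left out single arrays, blocked on replicate number, joined probe sets in other ways, and changed scaling, filter, weights and threshold or added the spike-in split.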

Additional observations from a re-analysis of the deposited data

How the results depend on the processing

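Counts of members that passed moved with the settings. None of the 6 members that passed changed sign in any setting with 1 value per gene. Among single probe sets, 1424364_a_at of Uqcr10 had the other sign, at 0.09. The medians of complexes II and III with all OvacD8 arrays stayed below 0, and the smaller medians of complexes I, IV and V and of all members crossed 0 in some settings. Leaving out 1 array gave 0 to 4 members higher and 1 to 15 lower (main 1 and 5), with medians from -0.38 to -0.30 for complex III, -0.17 to -0.08 for II, -0.045 to 0.0092 for I, -0.08 to -0.01 for IV, -0.04 to 0.02 for V and -0.07 to -0.01 for all members. The labels share only replicate numbers 1 and 2. Deviations from the group means correlated at -0.01 and 0.17 for these, while array pairs across the groups ran from -0.173 to 0.1825. With so few arrays such correlations cannot decide whether the samples were paired. With the replicate block 0 members were higher and 0 lower (77 and 125 of all genes). The medians were then 0.016 for complex I, -0.053 for II and 0.0046 for all members. Testing each probe set gave 4 higher, and medians of -0.053 for II and -0.18 for III. The widest probe set of each gene gave 2 higher and 3 lower, and complex I medians of -0.072, and of -0.046 against OvacD8-2 and -0.12 against OvacD8-3. The median of probe sets gave -0.28 for complex III, -0.16 against OvacD8-2 and -0.26 against OvacD8-3. Without x and s probe sets the 2D11 mean against OvacD8-1 had medians of 0.059 for II and -0.15 for III, and against OvacD8-3 of -0.086 for I, -0.018 for IV and -0.15 for V. Array weights, whose fit did not converge, gave 19 higher and 31 lower (3834 and 3557 of all genes). The spike-in split gave 2 lower and medians of 0.0054 for I, -0.023 for II and -0.24 for III. An adjusted p under 0.1 gave 2 higher, and an added size of at least 1 left 0 higher and 1 lower, Uqcr10. Without its widest probe set, an alternative chosen after the data were seen like the probe set and scaling choices against single OvacD8 arrays, the complex III median was -0.14. The causes were not tested. The planned steps that need a probe set's level could not be run on centred values.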
